A study of Gossypium hirsutum with 6 samples.

Results

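The transcripts of the stem apex that were well expressed in the tall-culm mutant of upland cotton (Gossypium hirsutum) or in its wild type are described here. They were chosen as the assembled transcripts whose mean over both libraries was 10 RPKM or more, where RPKM is the number of reads on a transcript scaled by its length and by the reads of the library. This took in 15107 of 156846 transcripts (9.63%). The tall-culm mutant Ari3697 (A3) was set against the wild type Ari971 (A9), from which it had been obtained by 60Co gamma irradiation. The dwarf mutant Ari1327 (A1), from irradiation of the same line, is given beside them for many of the named transcripts. All seedlings were grown in a greenhouse, and their stem apexes were cut at the stage of the fifth true leaf. Each line is represented by a single mRNA library, so no difference between lines has a replicate check and no p-value is given. The sources used here do not give the number of plants behind a library, the mutated loci or whether other isolates of each mutant were studied. The methods and the labels speak of pooled RNA of the lines, while the genotype label gives each library its own line. The genotype label was followed. No markers of the stem apex could be checked, because the files pair no transcript with a gene name.

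The stem apex holds the shoot apical meristem, the dividing cells that form leaves and stem, together with the young leaves and the stem tissue just below. Plant height depends on how fast cells divide there and on how far they elongate afterwards, and gibberellin, auxin and brassinosteroid are the hormones best known to promote that elongation. Upland cotton is a tetraploid with A and D subgenomes, so most of its genes have a near-identical partner. The assembler Trinity groups transcripts that share sequence into a component, within which splice forms, alleles and partner genes can stand side by side as separate transcripts. In the names used here the last number is that of the transcript and the rest is that of the component. Reads can be shared within a component, and the value of a single transcript then depends on how they were divided.

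The members whose function is known from the study's lists are predicted targets of microRNAs, short RNAs of plants that pair with a messenger RNA along nearly their whole length and lead to its cleavage or to less translation. Of 512 listed target transcripts, 122 were among the well-expressed ones, and 63 of these have a function name. A site with an ungapped pairing was listed for 37 of the 122. The sites of the members with the lowest and the highest ratio of A3 over A9 follow, as the study lists them. A transcript can be listed for other microRNAs as well. Each site is written 5′ to 3′ on the transcript, with capitals for bases that form a Watson-Crick pair with the microRNA. The microRNA fragment, also 5′ to 3′, has its seed (bases 2 to 8) in capitals.
comp20688_c0_seq1, bases 215 to 235: GuUuUUUGUUUuuCAgAUUUU
ghr-m1071-3p: aAAAUUUGguaaacaaagagc
comp43773_c0_seq1, bases 468 to 488: GAGUUCCuCCAAACuCUUCAu
ghr-m1777-3p: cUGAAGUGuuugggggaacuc
comp40610_c0_seq1, bases 1487 to 1508: GaAAUGGGgGGAuUUGGAggGA
ghr-m1352-3p: uCUUUCCAauuccucccauucc
comp32012_c1_seq1, bases 216 to 236: AAcAUCAUGuUGGCAGCUUuc
ghr-m6018-5p: uGAAGCUGccagcaugaucuu
comp43497_c0_seq5, bases 1742 to 1761: AAACuUggGGgUGCAGAUUg
ghr-m3978-5p: uAAUCUGCauccugagguuu
comp31467_c0_seq1, bases 583 to 603: GAUAgUGGCACGaCUuAAUCA
ghr-m0344-3p: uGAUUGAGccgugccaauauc
The first 3 belong to the photosystem II 22 kDa protein, which dissipates excess light energy, to 3′-phosphoadenosine 5′-phosphosulfate synthase, which makes the sulfate donor of the cell, and to a plant arogenate dehydrogenase, an enzyme of tyrosine synthesis. The last 3 belong to a euchromatic histone-lysine N-methyltransferase, to a transcript annotated with protein phosphorylation only, and to SNU13, a small protein of the spliceosome and of the ribonucleoproteins that modify ribosomal RNA. Their levels are given further on. The photosystem II site pairs over 16 of 21 bases and the SNU13 site over 18 of 21.

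Other sites come from the study's list of cleavage sites read from degraded RNA. That RNA came from a library outside this series, so it does not show cleavage in these samples. The sites are shown because they belong to well-studied plant microRNAs.
comp40057_c0_seq1: UGUUcGUUGAUGGUCAUCUAA
ghr-miR827a: uUAGAUGAccaucaacaaaca
comp45893_c0_seq5: GaAaCAAUGCGAUCCCUUUGGA
ath-miR393a: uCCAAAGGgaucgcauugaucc
comp45738_c0_seq1: gGgGUUUGUGCGUGAAUCUAA
ath-miR403: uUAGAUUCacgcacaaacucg
comp46753_c1_seq2: UUCCCGAgCUGCACCAAGCaA
ath-miR168a: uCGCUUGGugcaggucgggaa
In Arabidopsis, miR168 and miR403 act on Argonaute genes, the proteins that carry small RNAs, miR393 on the auxin receptors of the TIR1 family, and miR827 on a gene of phosphate homeostasis. The transcripts with the miR403 and miR168 sites are listed here as eukaryotic translation initiation factor 2C, the database name of Argonaute, and the one with the miR393 site carries the GO term of auxin signalling. The microRNAs themselves were sequenced in other libraries, which were not analysed here.

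Most well-expressed transcripts had about the same level in A3 and A9. Ratios are given as log2(A3/A9) with 0.1 RPKM added to each value, and a transcript was counted as past 2-fold at a ratio of 1 or more in size. The median ratio was −0.01, the middle 50% of ratios lay between −0.21 and 0.20, and 12799 transcripts (84.7%) were within 0.5 of 0. Past 2-fold were 431 transcripts, 2.85% of those considered, against 17.5% of all transcripts in the files by the same rule (9.06% higher in A3 and 8.43% lower). Of these, 293 (1.94%) were higher in A3 and 138 (0.913%) were lower, which is 2.12 higher for each lower. The sign alone was not skewed this way, with 7306 transcripts above 0, 7787 below and 14 at 0. The excess of higher values therefore lay in the tail of the distribution: the 99th percentile of the ratio was 1.39 and the 1st was −0.96. At 4-fold or more, 61 transcripts were higher in A3 and 10 were lower. These counts include transcripts that reached the minimum mean only through the library in which they were high. Where both libraries were at 10 RPKM or more, 125 were past 2-fold higher and 74 lower. No count at 4-fold was made for those alone. Among the transcripts under 10 RPKM, 19.1% were past 2-fold by the same rule, 9.82% higher and 9.23% lower.

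**Figure D1:**
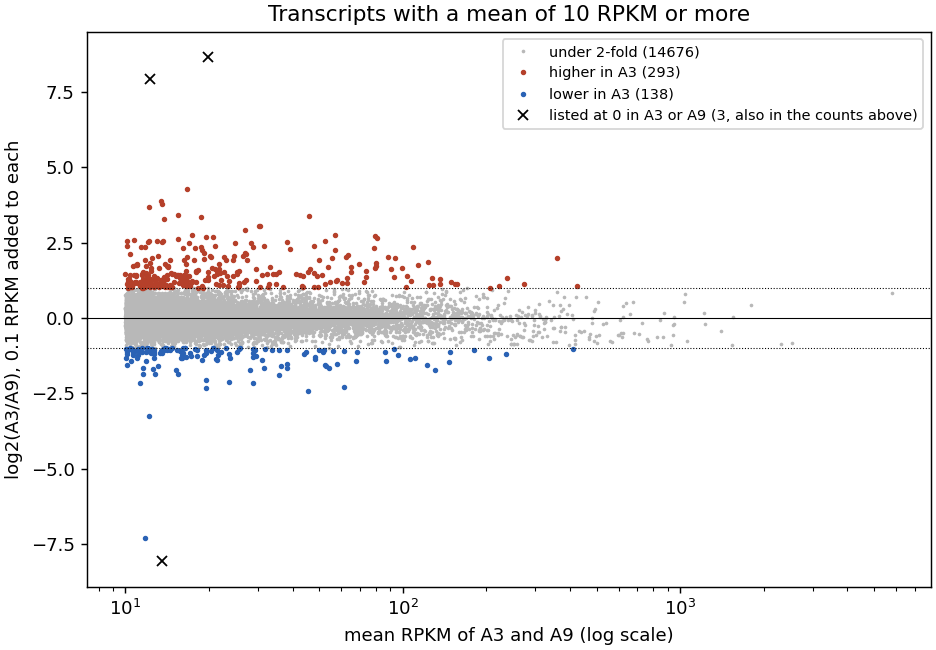
Log2(A3/A9) of each of the 15107 transcripts (vertical axis, 0.1 RPKM added to each value) against its mean RPKM in A3 and A9 (horizontal log axis), with dotted lines at 2-fold. Red points (293) are higher in A3, blue points (138) are lower, and the 3 crosses are transcripts listed at 0 in 1 library, whose height is set by the 0.1 added; points above the line are more numerous and lie farther out than points below.

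The libraries were close in scale. The RPKM of all transcripts summed to 798674 in A3 and to 800227 in A9, and the well-expressed transcripts held 61.3% of it in A3 and 61.9% in A9. Read numbers per transcript are not in the files. For transcripts of listed length, RPKM times length fell on whole multiples of 73.9 in A3 (89.7% of 78 low values within 0.1 of a multiple) and of 66.25 in A9 (88.3% of 77), so 1 read or read pair would be worth 1.12 times as much RPKM in A3. Without lengths the same quotient was seen in 36613 transcripts between 0.3 and 1.2 RPKM, of which 4617 had a ratio of A3 to A9 from 1.1 to 1.14, against 2132 in the next fullest interval of that width. At 10 RPKM and the shortest listed length of 205 bases, a transcript then rests on 27.7 multiples in A3 and 30.9 in A9, and counting alone gives its log2 ratio a standard error of 0.38. Of the 65 members with a listed length, the counts ranged from 29 to 5601 with a median of 534. Exact Clopper-Pearson intervals (95%) on the quotient of these counts cover counting error only, and they left out 0 for 35 of the 65, with 12 higher in A3 and 23 lower. They treat each multiple as a separate count. Sequencing was paired-end, and both reads of a pair come from the same fragment. If 1 multiple is 1 read of a pair, the standard error and all counting intervals given here are too narrow. Intervals that end near 0 might then not leave it out.

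The choice by mean level fixed the direction of the 1766 members with 1 library under 10 RPKM. For 92 of them it also fixed a difference of at least 2-fold. A transcript with 6.62 RPKM or less in 1 library needed at least 2-fold more in the other to enter. Of the 92 members of this kind, 72 were higher in A3 and 20 lower. All 92 are among the 431 transcripts past 2-fold, of which 293 were higher and 138 lower. Where both libraries were at 10 RPKM or more, 199 of 13341 transcripts were past 2-fold (1.49%), 125 higher and 74 lower. The rest of the 431 had 1 library under 10 RPKM and entered only through the other one. At the edge of the choice, comp37103_c0_seq1 (10.20 RPKM in A3, 9.80 in A9) and comp39201_c0_seq2 (14.69 in A3, 5.31 in A9) were just inside. Just outside were comp43509_c0_seq1 (9.97 in A3, 10.02 in A9) and comp36514_c0_seq2 (9.40 in A3, 10.59 in A9). At the 2-fold limit, comp10215_c0_seq1 (15.38 in A3, 7.64 in A9) counted as higher and comp32762_c0_seq1 (18.92 in A3, 9.42 in A9) did not. On the other side comp31970_c0_seq1 (7.59 in A3, 15.28 in A9) counted as lower and comp40773_c0_seq2 (6.67 in A3, 13.42 in A9) did not.

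Where neither library was under 1 RPKM, the 8 largest rises reached a ratio of 4.28. All 8 had under 10 RPKM in A9 and so entered only through A3. In all but comp31602_c0_seq1, A9 was at 6.62 RPKM or less, so a rise of at least 2-fold was fixed by the choice. comp36020_c0_seq1 had 31.72 RPKM in A3, 1.54 in A9 and 100.59 in A1, 19.4-fold higher in A3 than in A9. comp30190_c0_seq1 had 25.23 RPKM in A3, 1.61 in A9 and 38.82 in A1 (14.8-fold). comp9981_c0_seq1 had 25.40 RPKM in A3, 1.74 in A9 and 21.18 in A1 (13.9-fold). In the first 2 the dwarf mutant was higher still, and in the third A3 was the highest of the libraries. comp21767_c0_seq1 had 22.67 RPKM in A3, 1.66 in A9 and 27.95 in A1, and comp16760_c0_seq1 had 28.31 in A3, 2.54 in A9 and 37.94 in A1. The most abundant of the 8 was comp31602_c0_seq1, with 83.89 RPKM in A3, 7.94 in A9 and 196.76 in A1. Its component of 3 transcripts had a smaller ratio, 2.63 against 3.39 for the transcript, since the rest of the component was less changed. comp37506_c0_seq1 had 34.23 RPKM in A3, 3.28 in A9 and 90.01 in A1, and comp28725_c0_seq1 had 25 in A3, 2.49 in A9 and 72.52 in A1. A1 was thus the highest library for 7 of the 8, A3 stood between A1 and A9, and A9 was the lowest for all 8. None of these transcripts has a listed function.

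The 8 largest falls were smaller, and A9 was the highest of the 3 libraries in each. comp36860_c0_seq4 had 2.23 RPKM in A3, 22.10 in A9 and 0.85 in A1, a ratio of −3.25. It was also the case in which a single transcript did not speak for its component. The 18 transcripts of the component summed to 87.84 RPKM in A3 and 87.82 in A9, so the component sum did not differ. comp38017_c1_seq3 had 14.26 RPKM in A3, 77.00 in A9 and 21.15 in A1 (−2.42), and here all 3 transcripts of the component were past 2-fold and their sum was 47.32 in A3 and 162.67 in A9. comp36128_c0_seq1 had 6.48 RPKM in A3, 32.60 in A9 and 19.50 in A1, and comp47819_c0_seq1 had 20.80 in A3, 101.46 in A9 and 66.85 in A1. The other falls were comp58387_c0_seq1 (4.04 in A3, 18.60 in A9, 7.15 in A1), comp30431_c1_seq1 (10.39 in A3, 47.11 in A9, 14.89 in A1), comp49877_c0_seq1 (8.79 in A3, 38.48 in A9, 16.41 in A1) and comp32266_c0_seq1 (7.47 in A3, 31.45 in A9, 7.73 in A1). In all 8 falls but comp36860_c0_seq4, A3 was the lowest library and A1 lay between A3 and A9. For comp36860_c0_seq4, comp36128_c0_seq1 and comp58387_c0_seq1, A3 was at 6.62 RPKM or less, so a fall of at least 2-fold was fixed by the choice. With A3 under 10 RPKM, comp49877_c0_seq1 and comp32266_c0_seq1 also entered only through A9. A1 and A3 share A9 as their reference, so a high value in A9 alone moves both ratios.

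**Figure D2:**
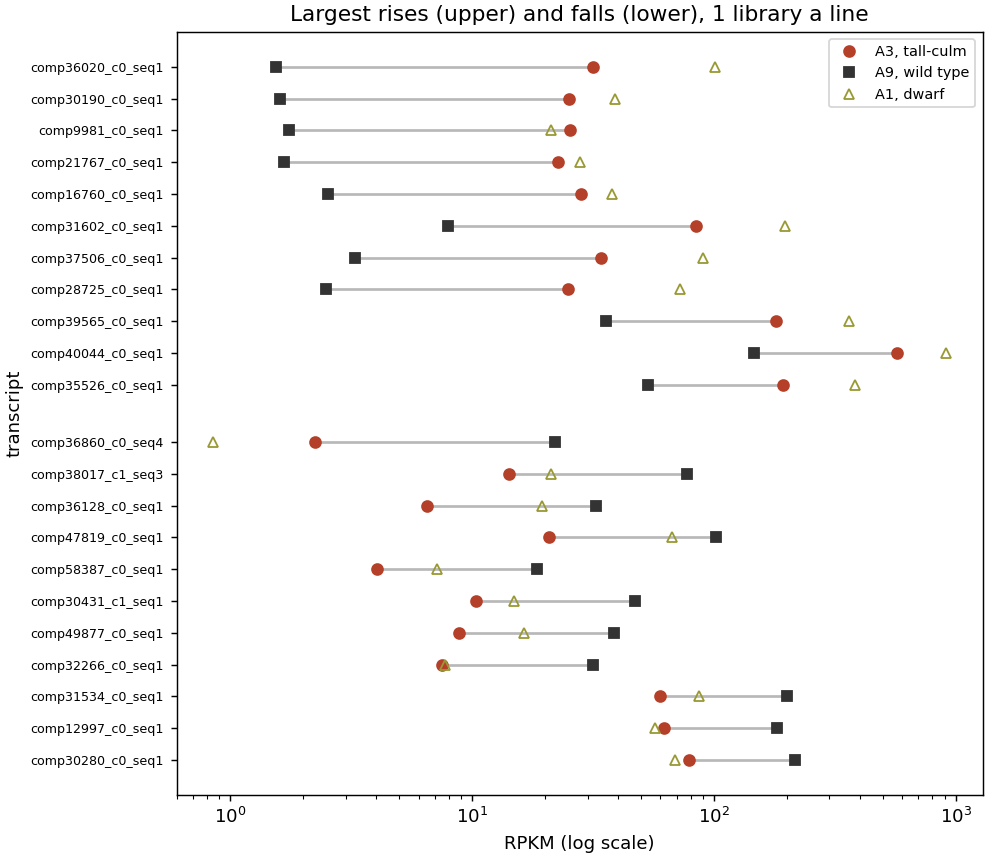
RPKM (log axis) in A3 (red circles), A9 (dark squares) and A1 (open triangles), 1 library each, for the 8 largest rises and 3 largest rises at 100 RPKM or more (upper block) and for the falls chosen the same way (lower block); grey lines join A3 and A9. A1 lies to the right of A3 for all rises but comp9981_c0_seq1, and the grey lines of the first 8 rises are longer than those of the falls.

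Among transcripts with a mean of 100 RPKM or more, comp39565_c0_seq1 had 180.96 RPKM in A3, 35.67 in A9 and 360.50 in A1 (ratio of A3 over A9 2.34). comp40044_c0_seq1 had 573.49 RPKM in A3, 146.36 in A9 and 910.19 in A1 (1.97). comp35526_c0_seq1 had 193.53 RPKM in A3, 53.25 in A9 and 383.01 in A1 (1.86). Each is the only transcript of its component, and each had the order A1, A3, A9 from high to low. The largest falls at this level were comp31534_c0_seq1 (59.63 in A3, 200.47 in A9, 86.73 in A1), comp12997_c0_seq1 (62.07 in A3, 182.55 in A9, 56.87 in A1) and comp30280_c0_seq1 (78.52 in A3, 215.27 in A9, 68.90 in A1). Their ratios of A3 over A9 were −1.75, −1.55 and −1.45, and each is again alone in its component. The 5 most abundant transcripts of all were not past 2-fold. comp31154_c0_seq1 had 7419 RPKM in A3, 4186 in A9 and 6760 in A1 (0.83). comp36788_c0_seq2 had 1811 RPKM in A3, 3230 in A9 and 1787 in A1 (−0.84), and comp15241_c0_seq1 had 1636 in A3, 2972 in A9 and 1672 in A1 (−0.86). In these A3 and A1 lay close to each other and A9 apart from both. comp21547_c0_seq1 had 2054 RPKM in A3, 1535 in A9 and 2062 in A1 (0.42), and comp28956_c0_seq1 had 1554 in A3, 1541 in A9 and 1410 in A1 (0.01).

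A few transcripts were listed at 0 in 1 of the 2 libraries despite their level in the other. comp42267_c0_seq1 had 39.83 RPKM in A3, was listed at 0 in A9 and had 0.13 in A1. Its component has 37 transcripts, and without this one they summed to 151.76 RPKM in A3 and 112.21 in A9, so other transcripts of the component were present in A9. comp19405_c0_seq2 had 24.43 RPKM in A3 and was listed at 0 in A9 and in A1, while the other transcript of its component had 0.97 in A3, 1.24 in A9 and 3.25 in A1. comp31900_c0_seq4 was listed at 0 in A3 and had 27.03 RPKM in A9 and 1.05 in A1, and the other 3 transcripts of its component had between 1.39 and 3.27 RPKM in A3 and in A9. comp9303_c0_seq1, alone in its component, had 0.05 RPKM in A3, 23.46 in A9 and was listed at 0 in A1. No fold is given against a library listed at 0.

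Counted by transcript, the share past 2-fold was similar from 10 to 50 RPKM and larger from 50 to 500 RPKM, which the component sums given further on did not show in the same form. From 10 to 20 RPKM, 1.92% of 8734 transcripts were higher in A3 and 0.859% lower. From 20 to 50 RPKM the shares were 1.6% and 0.845% of 4498. From 50 to 100 RPKM they were 2.70% and 1.23% of 1224, and from 100 to 500 RPKM 3.29% and 1.65% of 607. Transcripts higher in A3 outnumbered the lower ones by about the same factor in each of these ranges. The spread did not narrow with level either: the SD of the ratio was 0.45 from 10 to 20 RPKM, 0.40 from 20 to 50, 0.46 from 50 to 100 and 0.50 from 100 to 500. The 44 transcripts at 500 RPKM or more leaned lower in A3. None of them was past 2-fold, but their median ratio was −0.34, against medians between −0.02 and 0.01 in the ranges below. Their middle 50% lay between −0.65 and 0.04, and together they held 42404 RPKM in A3, 47145 in A9 and 38789 in A1. Summed by component, the 74 components at this level had a median nearer 0, at −0.15, with the middle 50% between −0.57 and 0.15.

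**Figure D3:**
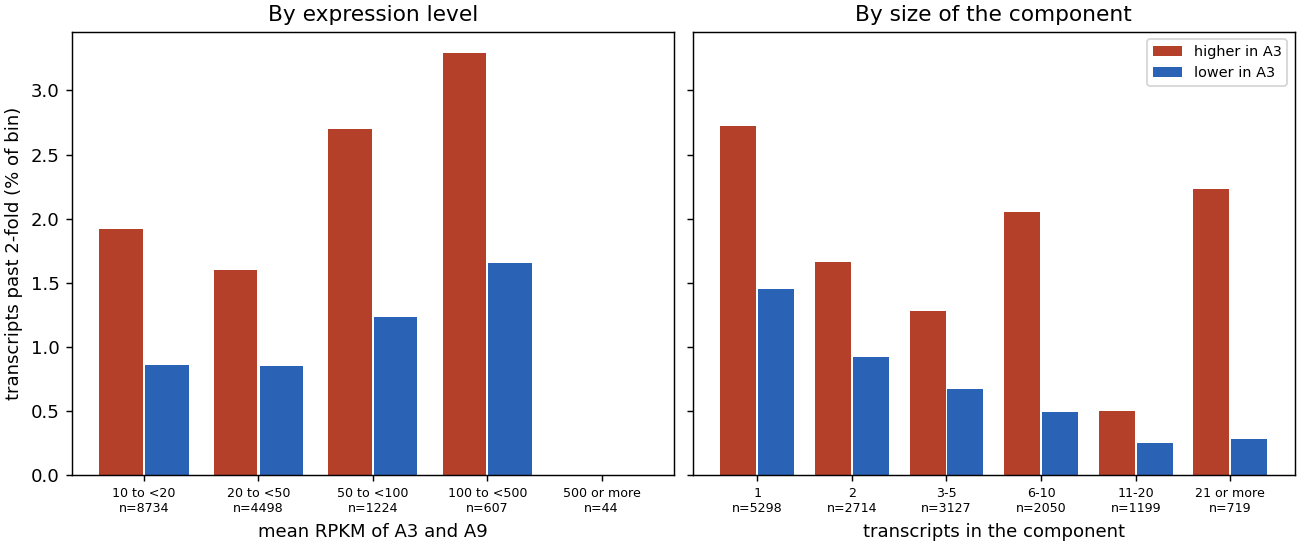
Percent of transcripts past 2-fold, higher in A3 (red bars) and lower in A3 (blue bars), by mean RPKM (left) and by the number of transcripts in the component (right), with the number of transcripts under each pair of bars. The share was largest from 100 to 500 RPKM (3.29% higher, 1.65% lower) and, among component sizes, for components of a single transcript (2.72% and 1.45%), and no transcript at 500 RPKM or more was past 2-fold.

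The number of transcripts in the component went with the share past 2-fold as well. Of 5298 transcripts alone in their component, 2.72% were higher in A3 and 1.45% lower. In components of 2 transcripts the shares were 1.66% and 0.921% of 2714, and in components of 3 to 5 they were 1.28% and 0.672% of 3127. The share lower in A3 was 0.488% of 2050 transcripts in components of 6 to 10, 0.250% of 1199 in those of 11 to 20 and 0.278% of 719 in those of 21 or more. The share higher in A3 followed no such order and was 2.05%, 0.5% and 2.23% in these 3 classes. A few components weighed heavily here. Of the 42 higher transcripts in components of 6 to 10, comp39172_c0 held 8 and comp33923_c0 held 6. Of the 16 in components of 21 or more, comp46525_c1 held 5 and comp45169_c0 held 4. Single-transcript components made up 35.1% of the well-expressed transcripts, but 49.1% of those higher in A3 and 55.8% of those lower. The rise of the share above 50 RPKM was found in such components. From 100 to 500 RPKM, 8.25% of 291 single transcripts were past 2-fold (17 higher, 7 lower), against 2.11% of 237 transcripts in components of 2 to 5 and 1.27% of 79 in larger ones.

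The median ratio moved with component size too. It was −0.03 for single transcripts, 0.05 in components of 11 to 20 and 0.16 in those of 21 or more. The 2 components with the most well-expressed transcripts are part of this. comp41870_c0 has 26 transcripts, all well expressed, with ratios between 0.52 and 0.78, and they summed to 2364 RPKM in A3, 1546 in A9 and 2756 in A1. comp41816_c1 has 21 transcripts, all well expressed, with ratios between 0.48 and 0.89, and a sum of 1674 RPKM in A3, 1056 in A9 and 1754 in A1. None of these 47 transcripts reached 2-fold. Without them the median in components of 21 or more was 0.13, and of the 285 such components with well-expressed transcripts, 192 had a higher sum in A3. Transcripts of a component can share reads, so these are not separate observations.

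Summing the RPKM of all transcripts of a component can lessen the effect of how reads were divided among them. It does not remove that effect, since each value was scaled by the length of its own transcript. At a mean summed level of 10 RPKM or more there were 15331 components, of 70875 in all. Past 2-fold were 394 of them, 2.57%, with 264 higher in A3 (1.72%) and 130 lower (0.848%), against 31.1% of all components (15.6% higher and 15.5% lower). Their median ratio was −0.01 and the SD was 0.42, against 0.44 for transcripts. The SD was 0.48 for components of 1 transcript, 0.40 for those of 3 to 5, 0.29 for those of 11 to 20 and 0.30 for those of 21 or more. The share past 2-fold was 4.17% for components of 1 transcript, 2.37% for 2, 1.72% for 3 to 5, 1.48% for 6 to 10, 1.09% for 11 to 20 and 1.2% for 21 or more. Both were smaller in larger components up to 11 to 20 and slightly larger again beyond. The median of components of 21 or more was 0.06. The larger share of higher transcripts in components of 6 to 10 and of 21 or more was thus not seen in the sums. By level, the share of component sums past 2-fold was 3.05% from 10 to 20 RPKM, 1.82% from 20 to 50, 2.91% from 50 to 100, 3.2% from 100 to 500 and 1.35% (1 of 74, lower in A3) at 500 or more. The sums from 50 to 500 RPKM thus had about the same share as those from 10 to 20, unlike the shares counted by transcript. Of the 394 components past 2-fold, 104 hold no transcript with a mean of 10 RPKM or more.

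Of the 293 transcripts higher in A3, 149 belong to components of 2 or more transcripts. The component sum was also past 2-fold for 106 of them (71.1%), was higher but below 2-fold for 42, and went the other way for 1. That one was comp30360_c0_seq1, with 21.14 RPKM in A3 and 5.01 in A9, in a component of 2 transcripts that summed to 107.27 in A3 and 151.85 in A9. Of the 138 transcripts lower in A3, 61 belong to larger components. Their component sum was past 2-fold for 34 (55.7%), lower but short of 2-fold for 26, and level for 1, the comp36860_c0_seq4 named above. The 293 higher transcripts came from 224 components and the 138 lower ones from 119, and no component held transcripts past 2-fold in both directions. In the 2703 components with 2 or more well-expressed transcripts, all of these had the same sign in 2011 (74.4%), and the lowest and highest ratios of a component were more than 1 apart in 30.

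**Figure D4:**
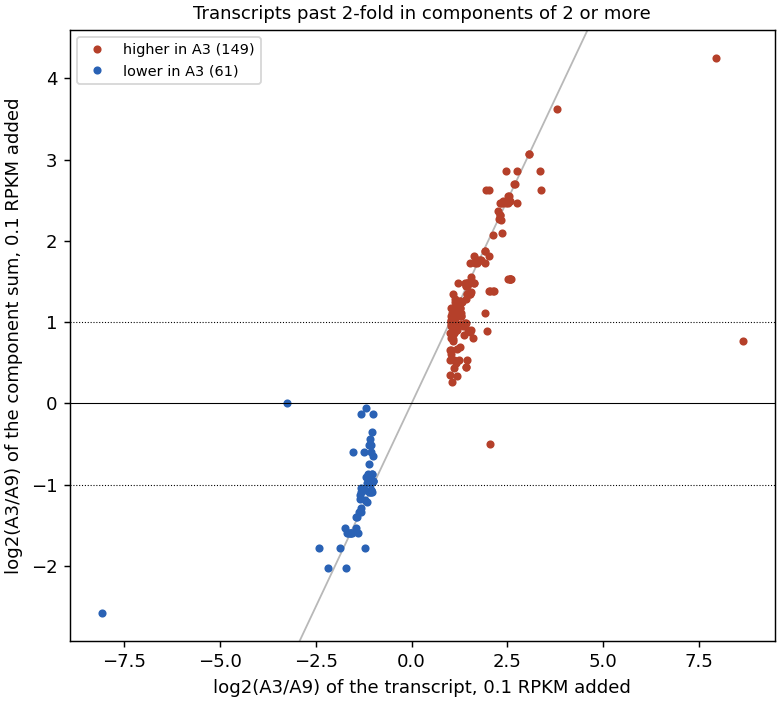
Log2(A3/A9) of the component sum (vertical axis) against that of the transcript (horizontal axis), 0.1 RPKM added to each, for the 149 transcripts higher in A3 (red) and the 61 lower (blue) that lie in components of 2 or more; the grey line marks equal ratios and dotted lines mark 2-fold for the sum. Most points follow the grey line, 42 red and 26 blue points lie between a dotted line and 0 on their own side, and comp30360_c0_seq1 and comp36860_c0_seq4 do not.

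Several components moved as a block, and those with the most transcripts past 2-fold were looked up after their values were seen. All 8 transcripts of comp39172_c0 were higher in A3, with ratios between 1.14 and 1.32 and a sum of 146.19 RPKM in A3, 61.55 in A9 and 224.54 in A1. All 6 transcripts of comp33923_c0 were higher, with ratios between 2.32 and 2.75 and a sum of 444.91 RPKM in A3, 80.21 in A9 and 721.68 in A1. In comp46525_c1 only 5 of 27 transcripts were well expressed, and these had ratios between 2.51 and 2.60, while the whole component summed to 139.07 RPKM in A3 and 48.14 in A9, a ratio of 1.53. On the other side, all 5 well-expressed transcripts of comp40149_c1 were lower in A3, with ratios between −1.66 and −1.54. The whole component of 6 transcripts summed to 123.13 RPKM in A3, 371.03 in A9 and 105.19 in A1. The sums of the first 2 were highest in A1, and that of the last was highest in A9 with A3 and A1 close together. There were 14 components with 3 or more transcripts higher in A3 and 3 with as many lower.

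By component sum, the largest differences among components of 2 or more transcripts were those listed at 0 in 1 library throughout. comp20317_c0 (2 transcripts) summed to 22.34 RPKM in A3, was listed at 0 in A9 and had 1.27 in A1. comp25862_c0 (3 transcripts) was listed at 0 in A3 and summed to 24.63 RPKM in A9 and 15.78 in A1. comp10028_c0 (2 transcripts) was likewise listed at 0 in A3 and summed to 21.47 RPKM in A9 and 53.45 in A1. The last 2 were thus listed at 0 in the tall-culm library and above 0 in both others, and no transcript of these 3 components reaches a mean of 10 RPKM alone. comp19405_c0 summed to 25.40 RPKM in A3, 1.24 in A9 and 3.25 in A1, comp9981_c0 to 42.78 in A3, 3.39 in A9 and 34.08 in A1, and comp43502_c0 (4 transcripts) to 28.36 in A3, 3.20 in A9 and 67.04 in A1. Lower in A3 was comp39716_c0, whose 4 transcripts summed to 1.34 RPKM in A3, 31.76 in A9 and was listed at 0 in A1, each of the 4 having between 6.98 and 8.91 RPKM in A9. comp44405_c0, with 31 transcripts, summed to 15.29 RPKM in A3, 122.05 in A9 and 14.92 in A1. Of its transcripts 26 were past 2-fold lower in A3 and 1 higher, and the one most abundant in A9 had 12.96 RPKM there and 0.38 in A3.

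The 122 listed microRNA targets among the well-expressed transcripts had a median ratio of −0.05, with 49 above 0 and 73 below. Of these, 108 (88.5%) were within 0.5 of 0, close to the 84.7% of all well-expressed transcripts, and 1 was past 2-fold, against 2.85% of all well-expressed transcripts. That transcript, comp38135_c0_seq1, codes for cyclophilin B, a peptidyl-prolyl isomerase that helps proteins fold in the secretory pathway. It had 13.72 RPKM in A3, 27.60 in A9 and 13.53 in A1, a ratio of −1.003 that falls short of 2-fold once 1 RPKM is added to each value (−0.96) or the ratios are centred on their median (−0.99). The photosystem II 22 kDa protein, comp20688_c0_seq1, came next with 32.92 RPKM in A3, 63.10 in A9 and 28.06 in A1 (−0.94, counting interval −1.21 to −0.67). comp43773_c0_seq1, the phosphoadenosine phosphosulfate synthase, had 21.09 RPKM in A3, 36.79 in A9 and 31.70 in A1 (−0.80, counting interval −0.96 to −0.65). In the first 2 of these 3 both mutants were low, and in the third A1 was nearer to A9.

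The hormone synthesis, transport and signalling list had 4 members, and all 4 were slightly lower in A3, with a median of −0.28. Of all 122 targets, 73 were below 0. The lowest was comp40321_c0_seq1, zeaxanthin epoxidase, an enzyme on the way to abscisic acid, with 35.03 RPKM in A3, 48.34 in A9 and 29.98 in A1 (−0.46). comp40273_c0_seq2, listed as brassinosteroid resistant 1/2, had 39.63 RPKM in A3 and 48.58 in A9, and comp44609_c0_seq3, the auxin receptor transport inhibitor response 1, had 20.62 in A3 and 24.79 in A9. comp39936_c0_seq2, a cytochrome P450 that hydroxylates carotenoid rings, had 13.55 RPKM in A3, 15.38 in A9 and 12.78 in A1 (−0.18). The auxin signalling transcript with the miR393 site, comp45893_c0_seq5, had 23.24 RPKM in A3, 27.76 in A9 and 19.69 in A1 (−0.26). Its component of 9 transcripts had a ratio of −0.04. A difference of this size was common, since the lower 25% of all well-expressed transcripts lay below −0.21.

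The cell wall, cytoskeleton and secretion list had 6 members, none past 2-fold, and held the highest ratio of any member with a function. This was comp43043_c0_seq2, a subunit of the cellulose synthase that spins the wall's microfibrils, with 25.15 RPKM in A3, 15.62 in A9 and 15.49 in A1 (0.68). A3 stood apart from both other libraries here, but the component as a whole had a ratio of 0.38. The lowest of the list was comp34310_c0_seq2, tubulin beta, the building block of microtubules, with 40.45 RPKM in A3, 53.21 in A9 and 32.63 in A1 (−0.39, counting interval −0.65 to −0.14). Phenylalanine ammonia-lyase (comp34947_c0_seq2), which opens the path to lignin, had 96.04 RPKM in A3 and 113.84 in A9, and pectate lyase (comp40743_c0_seq2), which cuts pectin, had 18.72 in A3 and 17.74 in A9. The median of the list was −0.23.

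The cell cycle, DNA replication and chromatin list had 4 members, 3 of them above 0, with a median of 0.41. The histone-lysine methyltransferase comp32012_c1_seq1 had 13.11 RPKM in A3, 8.47 in A9 and 13.04 in A1 (0.62), with a counting interval of 0.0094 to 1.28 that nearly reaches 0. The large subunit of DNA primase (comp40349_c0_seq3), which lays down the primers of replication, had 19.46 RPKM in A3, 13.57 in A9 and 19.69 in A1 (0.52), and replication factor C subunit 2/4 (comp37547_c0_seq1), a part of the loader of the sliding clamp, had 30.95 in A3, 25.01 in A9 and 35.33 in A1 (0.31, counting interval 0.15 to 0.47). For these 3 both mutants were above A9. The chromatin remodeller comp42872_c0_seq1 of the SWI/SNF family had 23.86 RPKM in A3 and 26.09 in A9 (−0.13). The sites of comp32012_c1_seq1 and comp37547_c0_seq1 are listed for the same microRNA, ghr-m6018-5p.

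In the translation and ribosome assembly list, 6 of 11 members were above 0, with a median of 0.16 and none past 2-fold. comp36146_c0_seq2, subunit 1 of the H/ACA ribonucleoprotein that modifies ribosomal RNA, had 20.78 RPKM in A3, 13.85 in A9 and 20.83 in A1 (0.58, counting interval 0.32 to 0.85). SNU13 (comp31467_c0_seq1), with the site shown above, had 35.08 RPKM in A3, 26.70 in A9 and 43.24 in A1 (0.39, counting interval 0.18 to 0.60). The ribosomal protein S17 (comp15825_c0_seq1) was the lowest, with 166.77 RPKM in A3, 198.80 in A9 and 158.34 in A1 (−0.25, counting interval −0.34 to −0.17). The Argonaute transcripts differed little: comp45738_c0_seq1 had 13.55 RPKM in A3, 14.79 in A9 and 13.98 in A1, and comp46753_c1_seq2 had 70.09 in A3, 75.16 in A9 and 64.58 in A1. The ratio was −0.13 for the one with the miR403 site and −0.10 for the one with the miR168 site.

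**Figure D5:**
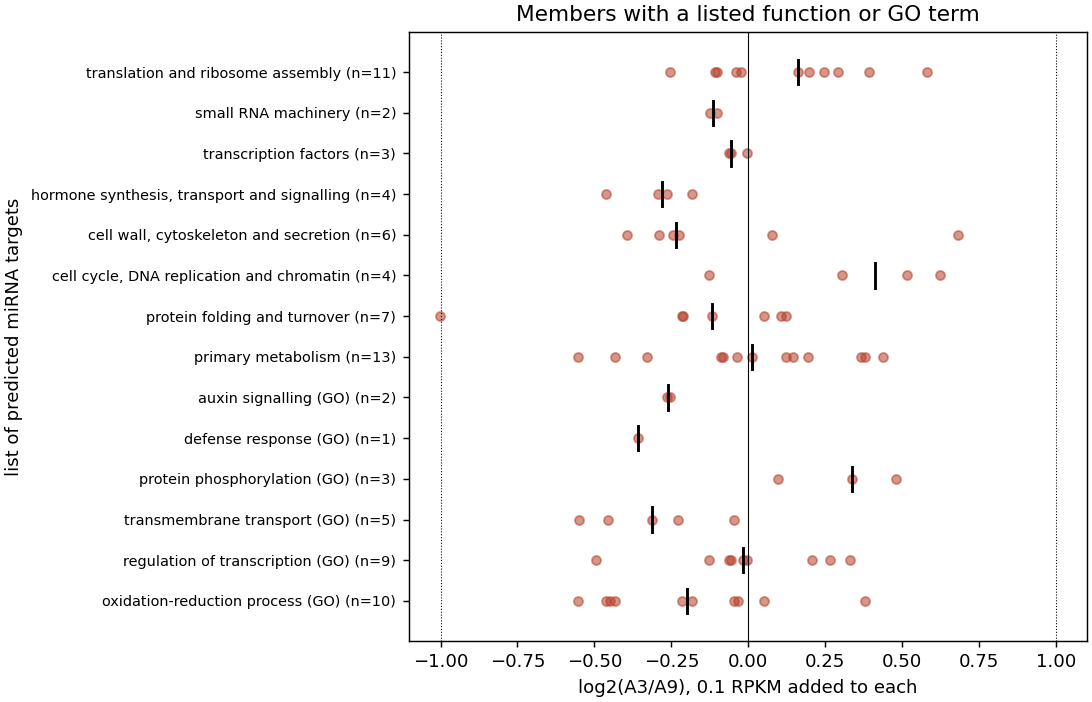
Log2(A3/A9) of each well-expressed microRNA target (red points, horizontal axis, 0.1 RPKM added) in each list by function or GO term (vertical axis, number of members in brackets), with the median of the list as a black bar and dotted lines at 2-fold. Only cyclophilin B in protein folding and turnover reaches a dotted line. All 4 members of the hormone list lie below 0, as do 73 of all 122 targets. In the cell cycle list, 3 of 4 lie above 0.

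Transcription factors were few among the well-expressed targets, 3 of 19 listed, and all lay within 0.1 of 0. They were the homeobox-leucine zipper transcripts comp45076_c0_seq1 (13.40 RPKM in A3, 13.45 in A9, 11.04 in A1) and comp31698_c0_seq1 (23.42 in A3, 24.33 in A9, 24.51 in A1) and the EREBP-like factor comp37594_c0_seq3 (26.35 in A3, 27.52 in A9, 30.40 in A1), a class that includes ethylene-responsive factors. Protein folding and turnover had 7 members, 1 past 2-fold (cyclophilin B) and a median of −0.12, and its highest was comp34319_c0_seq1, transitional endoplasmic reticulum ATPase, with 44.94 RPKM in A3 and 41.26 in A9. Primary metabolism had 13 members, 7 above 0 and 6 below, with a median of 0.01. Its lowest was arogenate dehydrogenase (comp40610_c0_seq1) with 25 RPKM in A3, 36.72 in A9 and 29.10 in A1 (−0.55, counting interval −0.71 to −0.40), and its highest was cytosolic aspartate aminotransferase (comp40487_c0_seq1), which passes amino groups between amino acids, with 17.57 in A3, 12.95 in A9 and 19.78 in A1 (0.44, counting interval 0.23 to 0.65). By GO term, all 5 members for transmembrane transport were below 0, as were 73 of the 122 targets. Their ratios went from −0.55 (comp38083_c0_seq1) to −0.05 (comp36288_c0_seq1). The 3 members for protein phosphorylation were above 0, from 0.10 (comp23622_c0_seq1) to 0.48 (comp43497_c0_seq5). Of 10 members for oxidation-reduction 8 were below 0, with comp46108_c0_seq2, the hydroxymethylglutaryl-CoA reductase of sterol synthesis, the highest at 0.38. The 10 transcripts of its component summed to 162.70 RPKM in A3 and 167.74 in A9, a ratio of −0.04, so the direction of the transcript was not that of the component. The 9 members for regulation of transcription had a median of −0.02, between −0.50 (comp40072_c0_seq1) and 0.33 (comp31381_c0_seq1). The only member for defense response, comp38613_c0_seq1, had 194.38 RPKM in A3, 249.03 in A9 and 187.69 in A1 (−0.36). None of the 7 listed for the apoptotic process had a mean of 10 RPKM or more. These lists hold a few members each, and none had more members past 2-fold than 1.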

How the data were processed

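After trimming adaptors and dropping poor reads, the authors made 1 de novo assembly with Trinity and deposited RPKM values per transcript, to 2 decimals. The mapper and the treatment of reads shared between transcripts are not given in the sources used here. The files hold no columns of comparisons, and small RNA was not analysed here. Values were joined by transcript name, 0.1 RPKM was added to each, and log2(A3/A9) was computed for transcripts with a mean of 10 RPKM or more. A ratio of 1 or more in size, rounded before comparison, was called. Because RPKM are not counts and each line has 1 library, no test was run. Component sums took all transcripts whose names agree up to the last number. Functions, GO terms, lengths and target sites came from additional files of the study, and no genome or gene names could be matched.

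Named transcripts were the 8 largest rises and falls at 1 RPKM or more in both libraries, the 3 largest at 100 RPKM or more, the 5 most abundant, those at 0, the 4 largest rises and falls of component sums, targets past 2-fold, the extremes of each list, transcripts the study names and those at the thresholds. Members and lists were chosen with earlier results of these data known. Sites are the listed ungapped pairs, windowed to the length of the microRNA. The alternatives were other added values, centring, upper-quartile scaling, other minimums, a 4-fold limit and component sums. The scripts were tested on simulated data. Tables were computed in Python 3.11.15 with pandas 2.3.3 and numpy 2.4.6, intervals with scipy 1.17.1, and figures were drawn with matplotlib 3.10.9.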

Additional observations from a re-analysis of the deposited data

How the results depend on the processing

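The number of transcripts past 2-fold depended mainly on the minimum level. With a minimum mean of 5 RPKM, 703 transcripts were higher in A3 and 403 lower, with 20 RPKM 125 and 63, with 10 RPKM in both libraries 125 and 74, and with no minimum 14207 and 13227. At 4-fold, 61 were higher and 10 lower. For component sums the same settings gave 512 and 338, 140 and 63, 142 and 69, and 11058 and 10998, and 48 and 16 at 4-fold. More were higher than lower in A3 under each of these, but with no minimum the counts were close. Without it, 9.06% of transcripts were higher and 8.43% lower, and 15.6% and 15.5% of components. Adding 1 RPKM, replacing 0 by 0.001, centring on the median ratio and upper-quartile scaling left between 269 and 299 transcripts higher and between 112 and 143 lower, and summing only well-expressed transcripts left 212 components higher and 104 lower. By component sums the share past 2-fold was 1.48% for components of 6 to 10 and 1.2% for those of 21 or more. Cyclophilin B fell short of 2-fold with 1 RPKM added or with centring, which left 0 members past 2-fold in the protein folding list. The sum over the component turned comp36860_c0_seq4 to a ratio of 0.0003 and put comp42267_c0_seq1 at 0.77.

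Precision is limited by 1 library per line, by reads shared within a component and by unknown read numbers per transcript. A difference between the libraries cannot be told apart from one between plants, harvests or library preparations of the same line. No paired analysis was possible because each line has a single mRNA library.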
